A study of Mus musculus with 7 samples.

Results

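The genes described are the canonical Notch ligands and receptors of the mouse, the ligands Jag1, Jag2, Dll1, Dll3 and Dll4 and the receptors Notch1, Notch2, Notch3 and Notch4. They were taken by name from the table of expression values, and all 9 were found among its 24346 genes. Expression was measured by RNA-seq in primary neurospheres, the floating spheres that hippocampal neural stem cells (NSCs) form in culture with EGF and FGF, with 1 library from each of 7 mice. The 3 Med23 CKO libraries (KO_117, KO_214 and KO_218) came from Nestin-Cre ER:Med23 flox/flox mice, and the 4 control libraries (WT_215, WT_116, WT_213 and WT_220) came from littermates. The labels call the controls wild type, whereas the methods of the study describe Med23 flox/+ and Med23 flox/flox littermates. These control genotypes are written without Nestin-Cre ER, and an effect of the recombinase itself was not tested. Both groups were on the C57/BL6 background, were 2 months old when cells were taken and received tamoxifen, the drug that activates the Cre recombinase, at 200 mg/kg on each of 5 days. The methods place the tamoxifen of culture experiments a month earlier than the labels do. The Nestin promoter drives the recombinase in NSCs and, as the study notes, also in endothelial cells, and recombination was not measured here by cell type. More control libraries are analysed here than the study counts, and since its text does not say which it used, all were kept.

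Notch signaling passes between cells in contact. A ligand on the surface of one cell binds a receptor on its neighbour, the receptor is cut first by an ADAM protease and then by gamma-secretase, and the freed intracellular part enters the nucleus, joins the DNA-binding protein RBPJ and its Mastermind coactivator and turns on target genes such as Hes1 and Hes5. In the adult hippocampus the pathway is known for keeping NSCs undifferentiated, with ligands displayed by cells that have begun to differentiate. Jag1, Jag2, Dll1 and Dll4 activate receptors on other cells, whereas Dll3 stays largely inside the cell and does not.

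Values are FPKM, fragments normalised to the length of the transcript and to the number of mapped fragments, so that levels can be compared between genes. Differences between groups are Med23 CKO minus control on the log2(FPKM + 1) scale, which understates the change of genes with low levels, and were tested with limma over the 14151 genes whose mean reached 0.5 FPKM. All 9 Notch genes passed that limit. Where 4 control and 3 Med23 CKO values of a gene are listed, they follow the order of mice in which the groups are introduced above. Med23, the targeted gene, measured 11.4, 10.3, 12.9 and 10.1 FPKM in the controls against 9.97, 9.27 and 8.12 FPKM in the Med23 CKO libraries. The groups did not overlap but lay close together, and the FPKM of Med23 includes reads of exons that are not deleted. The stem cell markers Sox2 (69.4 to 194 FPKM) and Nes (61.1 to 240.5 FPKM) were present in all libraries, and so were markers of other cells. The summed FPKM of 10 microglia and macrophage markers ran from 22.1 to 153 in control and from 25.0 to 672 in Med23 CKO, that of 10 endothelial markers from 13.6 to 78.4 and from 9.22 to 149, and that of 7 mural cell markers from 15.6 to 121 and from 9.60 to 438. In each of these lists the highest library was KO_214 and no marker was at 0 in any library. KO_214 therefore stood apart in these sums, and log2 differences of members that rest on it are given with and without it. Over all genes KO_117 stood as far from the other libraries, with a median r of 0.955 for each of KO_117 and KO_214. In bulk RNA, fewer cells of a type and less RNA per cell cannot be told apart.

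Before the levels, the promoter sequences of the members whose groups did not overlap are shown, with Dll3, the other member that holds the same motif, beside them. Windows of 250 bases before the start sites listed by RefSeq (GRCm38.p6) were found for all 9 genes, 10 windows in all since Dll1 has more than 1 start site. They were searched on both strands for the letters CAGCTG, an E-box bound by basic helix-loop-helix factors, for TGGGAA, the core of the RBPJ motif, and for CCGGAA, the core of the ETS motif bound by Elk1, the factor that Med23 links to the Mediator complex. CAGCTG was present in windows of Jag1, Dll1 and Dll3 and absent from the others, and 13.0% of all 32851 windows held it. The stretches of 30 bases around it follow, with CAGCTG in capitals, and lie at chr2:137116585-137116614 for Jag1, chr17:15377047-15377076 for Dll1 and chr7:28301775-28301804 for Dll3, all on the reverse strand. Those of Jag1 and Dll3 fall within exons of the GENCODE M21 annotation. That of Dll1 lies before its first exon and between the ends of A930024N18Rik, a non-coding gene on the other strand.
Jag1: ccgcgtttcatgCAGCTGatctgaaaggga
Dll1: tgcattaccataCAGCTGagcgcacaaaga
Dll3: tccggcatccagCAGCTGcgactcctgaga

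The E-box began 82 bases before the start of Jag1, 132 bases before the upstream start of Dll1 and 7 bases before the start of Dll3. TGGGAA was in 21.6% and CCGGAA in 12% of all windows, and in 0 of the 10 windows of the Notch genes. The letters in these windows are a description and give no sign of which factor is bound in the neurospheres. The bases of the Jag1 and Dll1 windows that lie before the first annotated exon are shown because these were the members whose groups separated. They are 126 bases at chr2:137116645-137116770 for Jag1 and 250 bases at chr17:15376933-15377182 for Dll1, again on the reverse strand. The capitals in the Dll1 stretch mark CAGCTG, and the Jag1 stretch ends before it.
Jag1: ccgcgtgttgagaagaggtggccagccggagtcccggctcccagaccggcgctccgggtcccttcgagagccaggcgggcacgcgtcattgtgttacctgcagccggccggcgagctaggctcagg
Dll1: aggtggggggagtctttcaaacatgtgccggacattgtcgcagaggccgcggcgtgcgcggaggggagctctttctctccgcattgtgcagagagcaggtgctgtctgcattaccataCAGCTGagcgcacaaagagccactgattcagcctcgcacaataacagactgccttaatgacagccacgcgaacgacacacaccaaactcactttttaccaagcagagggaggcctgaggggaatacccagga

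Jag1 was higher in each Med23 CKO library than in any control library, and Dll1 was lower in each. The remaining 7 genes had groups that overlapped. No member passed an adjusted p under 0.05 from limma (Benjamini-Hochberg over all genes), and neither did any of the 14151 genes, higher (0%) or lower (0%). At an unadjusted p under 0.05, 1 of the 9 members was higher, against 71 of all genes tested (0.502%), and 1 was lower, against 141 (0.996%). These counts changed when single libraries were left out, although Jag1 stayed among the members higher in each case. Without KO_117 they were 3 members higher and 1 lower, against 362 and 410 of all genes, and without KO_218 they were 1 and 0, against 139 and 71. Without KO_214 they were also 1 and 0, against 78 and 206 of all genes, and so they were without WT_215, against 44 and 78. The groups were fully separated, with Med23 CKO on the upper side, for 1 of the 9, against 0.784% of all genes, and with Med23 CKO on the lower side for 1, against 1.53%. The median log2 difference was 0.01 over the 9 members and -0.03 over all genes tested, with 6 members and 6196 genes on the positive side.

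**Figure D1:**
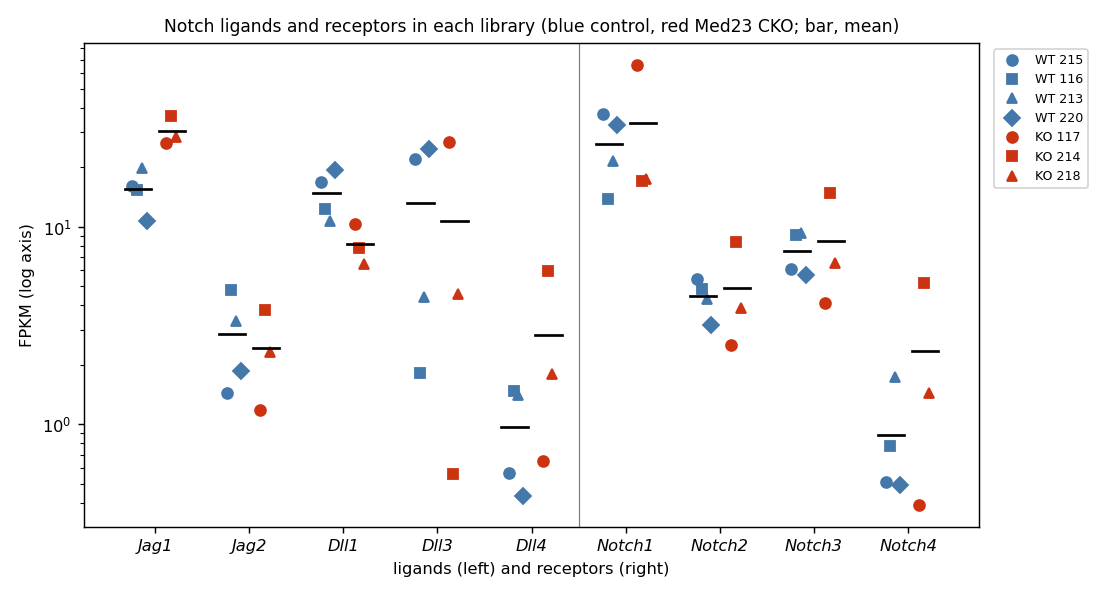
FPKM (log axis) of the 5 ligands and 4 receptors in each library, with control in blue, Med23 CKO in red, 1 symbol a mouse and a bar at the mean of each group. Only for Jag1 and Dll1 do the red and blue points not overlap; for Dll3 the values run from 0.560 to 26.9 FPKM within the Med23 CKO group alone.

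Jag1, the Jagged ligand that is also expressed by NSCs and astrocytes, measured 16.0, 15.4, 19.8 and 10.6 FPKM in the controls. In the Med23 CKO libraries it measured 26.5, 36.2 and 28.5 FPKM. The lowest Med23 CKO library was above the highest control library, and the ratio of the group means was 1.96. The log2 difference was 0.95 (standard error 0.24, 95% interval 0.40 to 1.5, limma adjusted p = 0.9999). Its exact permutation p, two-sided, was 0.0286, the smallest that 4 libraries against 3 allow. When any single library was omitted the difference ran from 0.79 to 1.07, and its unadjusted limma p was between 0.00382 and 0.0184. Jag1 lies on chromosome 2 of GRCm38 from 137081456 to 137116644 in GENCODE M21, on the reverse strand, with 26 exons in its longest transcript. Relative to the summed FPKM of 8 stem cell and astrocyte markers, Jag1 was 0.268% to 0.710% in the controls and 0.678% to 1.47% in Med23 CKO, and on that measure mouse KO_117 fell within the control range. This ratio, like the other ratios to markers given here, was chosen after the values were seen.

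Dll1, the Delta-like ligand displayed by committed progenitors and neuroblasts, measured 16.8, 12.2, 10.7 and 19.4 FPKM in the controls. The Med23 CKO libraries gave 10.2, 7.78 and 6.47 FPKM. The highest Med23 CKO library lay just under the lowest control library, and the ratio of the group means was 0.552. The log2 difference was -0.77 (standard error 0.26, 95% interval -1.38 to -0.16, limma adjusted p = 0.9999), with an exact permutation p of 0.0571, two-sided. Omitting any single library gave values from -0.93 to -0.63. Its unadjusted limma p of 0.0206 became 0.0574 when WT_215 was omitted, 0.0501 when KO_214 was and 0.0744 when KO_218 was. Dll1 lies on chromosome 17 from 15367354 to 15376872, on the reverse strand, with 11 exons. Of its 4219 annotated exon bases, 867 (20.5%) are shared with an exon of A930024N18Rik, a long non-coding RNA gene on the forward strand from 15375000 to 15379475. The library kit does not mark strand and the reads were aligned with default settings, so that reads of Dll1 and of its antisense neighbour cannot be told apart over those bases, and the part of the antisense gene in the Dll1 values was not tested. Jag1 shares no exon base with another annotated gene, and for Dll4, Notch1, Notch2 and Notch3 the gene that shares most holds 5.56%, 7.5%, 5.02% and 6.03% of exon bases.

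**Figure D2:**
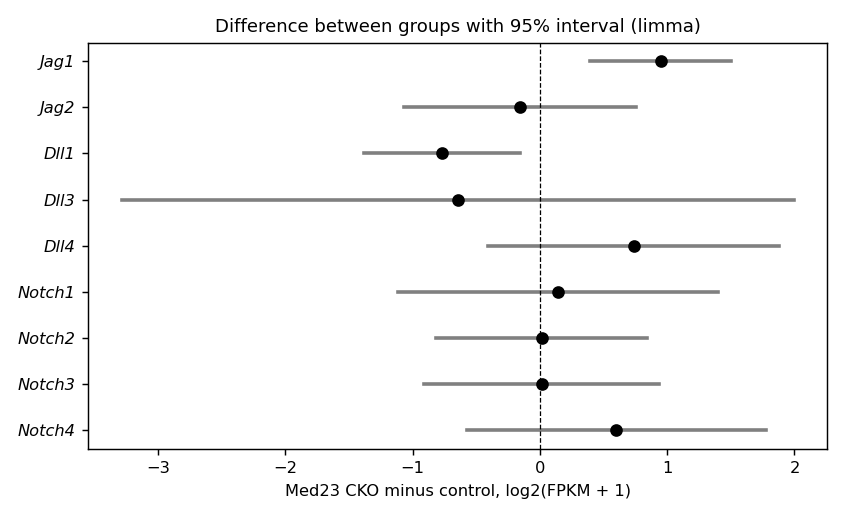
Difference in mean log2(FPKM + 1), Med23 CKO minus control, for each member (point) with its 95% interval from limma (grey bar). The intervals of Jag1 (0.40 to 1.5) and Dll1 (-1.38 to -0.16) lie on either side of 0, and those of the other 7 genes include 0.

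The ratio of Jag1 to Dll1 FPKM was 0.954, 1.26, 1.86 and 0.547 in the controls. In the Med23 CKO libraries it was 2.59, 4.65 and 4.40. Neither ligand was thus the more abundant in all control libraries, with Dll1 the higher in 2 of 4. Jag1 was the more abundant in 3 of 3 Med23 CKO libraries. On the log2 scale the ratio was 0.07 ± 0.74 among the 4 controls and 1.91 ± 0.47 among the 3 Med23 CKO libraries (mean ± SD). A single scaling factor for a library leaves this ratio as it is. No p is given for it, since it is built from genes whose groups were already known to separate in opposite directions.

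**Figure D3:**
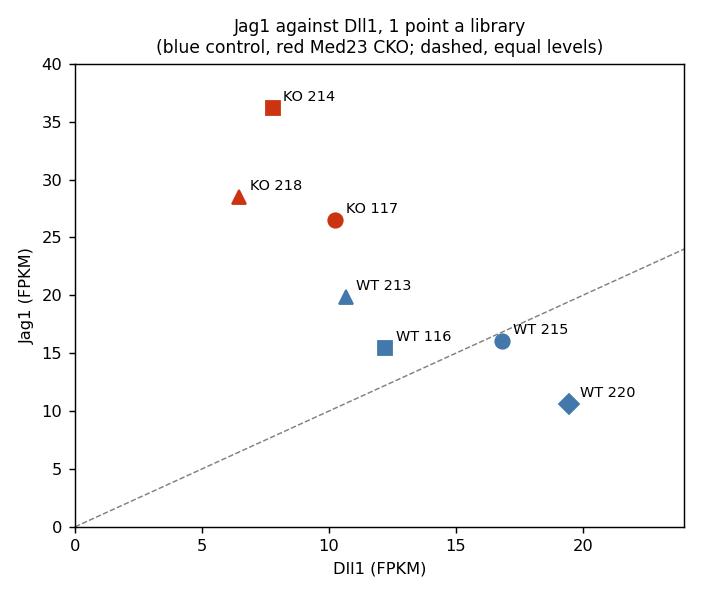
Jag1 against Dll1, both in FPKM, with 1 point a library, control in blue and Med23 CKO in red, and equal levels on the dashed line. The Med23 CKO libraries lie at 26.5 to 36.2 FPKM of Jag1 and 6.47 to 10.2 FPKM of Dll1, above and to the left of the control libraries.

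The makeup of the ligands, computed from the same Jag1 and Dll1 values and so no further evidence of their difference, is given as a description. Of the summed FPKM of the 5 ligands, Dll1 held 29.6%, 34.3%, 26.9% and 34.1% in control libraries, compared with 15.6%, 14.3% and 14.8% in Med23 CKO libraries. Its share was the most even of any ligand within Med23 CKO, with 14.9% ± 0.666 (SD, n = 3) against 31.2% ± 3.62 (SD, n = 4) in control. Jag1 held 28.2%, 43.2%, 50.0% and 18.7% in control libraries and 40.5%, 66.6% and 65.3% in Med23 CKO libraries, and the groups overlapped through mouse KO_117. In that library Dll3 took 41.1% of the ligand sum, as it took 38.7% in WT_215 and 43.2% in WT_220. The ligand sum averaged 47.3 ± 11.2 FPKM (SD, n = 4) among controls, compared with 54.5 ± 10.9 FPKM (SD, n = 3) among Med23 CKO libraries, a gap smaller than the spread between libraries.

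**Figure D4:**
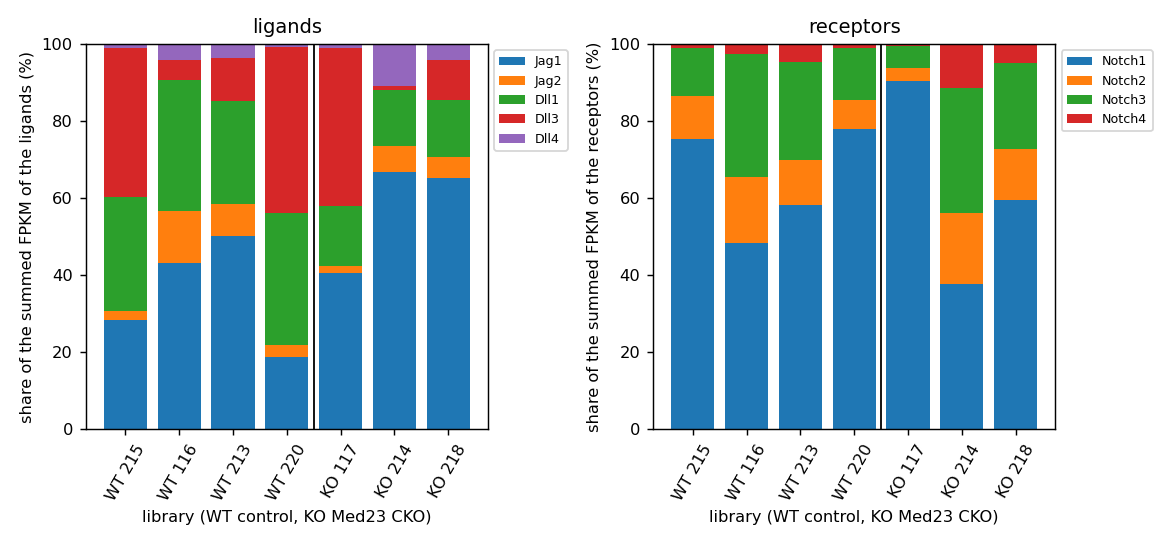
Share (%) of each ligand in the summed FPKM of the 5 ligands (left) and of each receptor in that of the 4 receptors (right), with 1 stacked bar a library and control libraries to the left of the line. The green Dll1 segment covers 26.9% to 34.3% in control and 14.3% to 15.6% in Med23 CKO; the receptor bars show no such division between the groups.

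Dll3, the ligand that is retained inside the cell, spanned the widest range of the 9 genes, with a highest value 48.1 times the lowest. The controls gave 22.0, 1.82, 4.42 and 24.6 FPKM, and the Med23 CKO libraries gave 26.9, 0.560 and 4.55 FPKM. High and low libraries occurred in both groups. Its log2 difference of -0.64 had a 95% interval of -3.28 to 1.99, so that a large difference in either direction cannot be discerned from none with these libraries. The log2 difference of Dll3 was 0.35 without KO_214 and -1.73 without KO_117.

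Jag2, a Jagged ligand of lower abundance, had 1.44, 4.75, 3.33 and 1.85 FPKM among controls and 1.18, 3.80 and 2.31 FPKM among Med23 CKO libraries. The groups overlapped throughout, with a log2 difference of -0.16 (95% interval -1.07 to 0.76). Its low libraries, WT_215, WT_220 and KO_117, were the ones in which Dll3 was high.

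Dll4, the Delta-like ligand best known from the endothelium of sprouting vessels, had 0.563, 1.48, 1.41 and 0.432 FPKM among controls and 0.652, 5.98 and 1.79 FPKM among Med23 CKO libraries. Notch4, the receptor found mainly in endothelial cells, had 0.508, 0.777, 1.74 and 0.492 FPKM among controls and 0.390, 5.21 and 1.43 FPKM among Med23 CKO libraries. For both genes the value in KO_214 exceeded all others, and KO_117 lay within or below the control range. The log2 difference was 0.74 for Dll4 (95% interval -0.41 to 1.88) and 0.60 for Notch4 (95% interval -0.57 to 1.77). Without KO_214 these became 0.17 and 0.01, and without KO_117 they became 1.21 and 1.09, with unadjusted limma p of 0.0269 and 0.0410.

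All 10 endothelial markers had a higher mean log2(FPKM + 1) in Med23 CKO, with 0 at an unadjusted p under 0.05. Without KO_214 the mean was higher for 1 and lower for 9. Without KO_117 it was higher for all 10, with a median log2 difference of 1.26. In that setting 3 of the 10 were higher at an unadjusted p under 0.05, against 362 of 14225 genes. Their summed FPKM was 14.1, 34.4, 78.4 and 13.6 among controls and 9.22, 149 and 46.7 among Med23 CKO libraries. As a percentage of that sum, Notch4 was 3.6, 2.26, 2.22 and 3.62 in control and 4.23, 3.49 and 3.06 in Med23 CKO, so that the highest value was 1.91 times the lowest, compared with 13.3 times for Notch4 FPKM. Dll4 was 1.79% to 4.30% of the endothelial sum in control and 3.84% to 7.07% in Med23 CKO, a span of 3.94 times compared with 13.9 times for its FPKM. Relative to the endothelial markers, the groups overlapped for both genes and KO_214 was within the range of the other libraries. KO_214 was also the highest library for the mural and the microglia and macrophage sums. Dll4 and Notch4 were not set against those sums, so whether the narrower span is particular to endothelial markers was not tested. The part of endothelial cells in the Dll4 and Notch4 values was not tested.

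**Figure D5:**
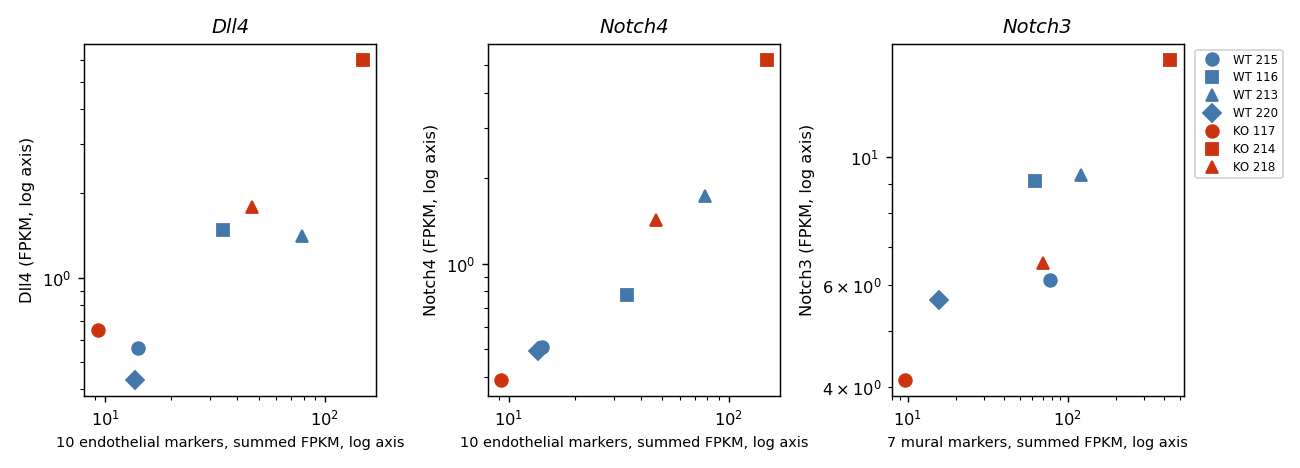
Dll4 and Notch4 against the summed FPKM of 10 endothelial markers, and Notch3 against that of 7 mural markers, all on log axes, with 1 point a library, control in blue and Med23 CKO in red. KO_214 is the library at the upper right for Dll4, Notch4 and Notch3 (5.98, 5.21 and 14.7 FPKM).

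Among the receptors, Notch1 was the most abundant in 7 of 7 libraries. Notch1, the receptor most studied in the maintenance of hippocampal NSCs, had 37.0, 13.8, 21.4 and 32.7 FPKM among controls. Med23 CKO libraries gave 66.0, 17.1 and 17.5 FPKM, so the highest library of all was a Med23 CKO library and the other two lay among the lower controls. The log2 difference was 0.14 (95% interval -1.11 to 1.40), and it turned to -0.48 without KO_117. Notch1 held from 48.4% to 77.9% of the summed receptor FPKM in control and from 37.7% to 90.4% in Med23 CKO.

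Notch2 had 5.46, 4.82, 4.32 and 3.16 FPKM among controls and 2.50, 8.36 and 3.86 FPKM among Med23 CKO libraries, and Med23 CKO values lay on both sides of the control range. Its log2 difference was 0.01 (95% interval -0.81 to 0.84). Notch3, a receptor characteristic of the mural cells of vessels and also expressed by NSCs, had 6.12, 9.09, 9.33 and 5.66 FPKM among controls and 4.11, 14.7 and 6.56 FPKM among Med23 CKO libraries. Here too the Med23 CKO group held both the lowest and the highest library, and the log2 difference was 0.01 (95% interval -0.91 to 0.94). Without KO_214 the differences were -0.38 for Notch2 and -0.43 for Notch3, and without KO_117 they were 0.33 and 0.38.

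Of the 7 mural markers 6 could be tested, and all 6 had a higher mean log2(FPKM + 1) in Med23 CKO, with 0 at an unadjusted p under 0.05. Without KO_214 the mean was higher for 1 of the 6 and lower for 5. Without KO_117 all 7 mural markers could be tested and had a higher mean, with a median log2 difference of 1.45. In that setting 1 of the 7 was higher at an unadjusted p under 0.05, against 362 of 14225 genes. Notch3 varied less than the mural sum did, 3.59 times between its lowest and highest library. As a percentage of the mural sum it ran from 7.74 to 36.2 in control and from 3.36 to 42.8 in Med23 CKO. The part of mural cells in the Notch3 values was not tested. None of the sums of the 6 marker lists (stem cell and astrocyte, neuroblast, oligodendrocyte lineage, endothelial, mural, and microglia and macrophage) separated the groups without overlap. Of the 48 single markers 1 did, Dlx2 of the neuroblast list, with Med23 CKO on the lower side, against 1.53% of all genes tested. Dlx2 had 3.12, 0.366, 0.581 and 0.555 FPKM among controls and 0.0889, 0.241 and 0.181 FPKM among Med23 CKO libraries. Its log2 difference was -0.72 (95% interval -1.64 to 0.20), and its level was 0.581 FPKM or less in every library except WT_215. The neuroblast list as a whole did not follow Dlx2. Of its 6 genes, 3 had a higher and 3 a lower mean in Med23 CKO, with a median log2 difference of -0.09. The part of neuroblasts in the Dll1 values was not tested.

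In order of mean level, the control libraries had Notch1 (26.2 ± 10.6 FPKM, SD, n = 4), Jag1 (15.5 ± 3.77), Dll1 (14.8 ± 4.06), Dll3 (13.2 ± 11.7), Notch3 (7.55 ± 1.93), Notch2 (4.44 ± 0.973), Jag2 (2.84 ± 1.51), Dll4 (0.970 ± 0.549) and Notch4 (0.879 ± 0.587). Of the neighbours in this order, Notch3 and Notch2 were separated in their ranges, and all other neighbours overlapped. In Med23 CKO the order was Notch1 (33.5 ± 28.1 FPKM, SD, n = 3), Jag1 (30.4 ± 5.12), Dll3 (10.7 ± 14.2), Notch3 (8.47 ± 5.57), Dll1 (8.16 ± 1.92), Notch2 (4.91 ± 3.06), Dll4 (2.81 ± 2.81), Jag2 (2.43 ± 1.32) and Notch4 (2.34 ± 2.53), and the ranges of all neighbours overlapped. Jag1 stayed in the second place and Dll1 went from the third place to the fifth. Jag1 exceeded Notch1 in 1 of 4 control libraries and in 2 of 3 Med23 CKO libraries.

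The genes whose log2(FPKM + 1) followed that of a member most closely over the 7 libraries are given as a description, since the closest of so many genes was picked for a large correlation. For Dll1 they were Faah, which degrades endocannabinoids (Pearson r = 0.990, Spearman rho = 1), Specc1 (r = 0.984, rho = 0.964) and Grin1, a subunit of the NMDA receptor (r = 0.983, rho = 1). For Jag1 they were Ap3s1, an adaptor subunit of vesicle transport (r = 0.968, rho = 1), Susd5 (r = 0.968, rho = 0.964) and Lrp12 (r = 0.963, rho = 0.964). Without the libraries KO_214 and WT_220, which lay farthest from the Jag1 median, r for these 3 was 0.900, 0.964 and 0.903. For Dll3 they were Kif23, a kinesin of cytokinesis (r = 0.998, rho = 0.964), the condensin subunit Ncapd2 (r = 0.998, rho = 0.929) and Depdc1b (r = 0.998, rho = 0.964), so that the closest companions of Dll3 included genes of mitosis. For Dll4 they were Soat1, Flt1 and Pygl (r from 0.991 to 0.994, rho from 0.857 to 0.964), among them the VEGF receptor Flt1, one of the endothelial markers. Without KO_214 and WT_220, r for these 3 was 0.966, 0.971 and 0.966. Notch4 was closest to Paqr7, Ikzf1 and Csf3r (r from 0.993 to 0.994, rho from 0.857 to 1), of which Ikzf1 and Csf3r are known from blood cells. Without KO_214 and WT_213, r of Notch4 with these 3 was 0.998, 0.990 and 0.982. Notch1 was closest to Pitpnm2, Dchs1 and Fam217b (r from 0.993 to 0.996), Notch2 to Acp5, Timp1 and Arsb (r from 0.984 to 0.989), Notch3 to Slc25a45, Sh3bp5 and Exoc3l (r from 0.992 to 0.996) and Jag2 to Smim19, Dcaf4 and BC005624 (r from 0.988 to 0.997).

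The rest of the pathway was followed in 9 lists with 69 genes, of which 64 could be tested. At an unadjusted p under 0.05, 0 of the 64 were higher, against 0.502% of all genes, and 1 was lower, against 0.996%, a share near that of all genes. None had an adjusted p under 0.05 from limma. The gene that was lower was Dner, a non-canonical Notch ligand of neurons, with 50.7, 70.6, 45.4 and 50.0 FPKM among controls and 41.3, 34.7 and 35.9 FPKM among Med23 CKO libraries. Its groups did not overlap, which on the lower side held for 1 of the 64, against 1.53% of all genes tested. The log2 difference of Dner was -0.51 (standard error 0.19, 95% interval -0.96 to -0.06, exact permutation p = 0.0571, two-sided). Of the 9 non-canonical ligands tested, 2 had a higher and 7 a lower mean in Med23 CKO, with a median log2 difference of -0.22. Without WT_215, 3 of 8 tested had a higher and 5 a lower mean, with a median of -0.03. When WT_215, KO_214 or KO_218 was left out, 0 non-canonical ligands, and so not Dner, were lower at an unadjusted p under 0.05.

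Of 6 genes for the glycosylation and maturation of receptors, 3 had a higher and 3 a lower mean. Lfng, the Fringe glycosyltransferase that sets which ligands a Notch receptor answers to, had 43.8 ± 28.3 FPKM (SD, n = 4) among controls compared with 27.8 ± 24.4 FPKM (SD, n = 3) among Med23 CKO libraries, with a 95% interval of -2.37 to 0.93 for the log2 difference. All 6 genes for the ubiquitination and endocytosis of ligands had a lower mean, with a median log2 difference of -0.24 and 0 at an unadjusted p under 0.05. Mib1, the ubiquitin ligase that ligands need for signaling, had 19.2 ± 4.68 FPKM (SD, n = 4) among controls compared with 16.6 ± 4.46 FPKM (SD, n = 3) among Med23 CKO libraries. Of the 9 genes for receptor cleavage, 8 had a higher mean, with a median of 0.17, and of the 9 for receptor turnover 3 did, with a median of -0.06. Without KO_214, 4 of the 9 cleavage genes had a higher and 5 a lower mean, and 2 of the 6 ubiquitination and endocytosis genes had a higher one.

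In the nucleus, Rbpj had 20.3 ± 3.79 FPKM (SD, n = 4) among controls compared with 26.1 ± 5.55 FPKM (SD, n = 3) among Med23 CKO libraries, a log2 difference of 0.34 (95% interval -0.17 to 0.86). Rbpj was highest in KO_214 with 32.4 FPKM, against 22.1 FPKM in KO_117 and 23.7 FPKM in KO_218. Of the 9 genes of the nuclear complex and its coactivators, 5 had a higher and 4 a lower mean (median 0.03), and of the 9 corepressors 1 had a higher and 8 a lower mean (median -0.09), which became 5 higher and 4 lower without KO_218. Of the 6 target genes 5 could be tested, 2 with a higher and 3 with a lower mean (median -0.14), and 0 had an unadjusted p under 0.05. Hes1 had 13.3 ± 4.66 FPKM (SD, n = 4) among controls compared with 13.2 ± 9.17 FPKM (SD, n = 3) among Med23 CKO libraries. Hes5 had 3.17 ± 3.11 and 1.75 ± 1.90 FPKM, and both target genes had intervals that included 0, -1.19 to 0.91 for Hes1 and -2.12 to 1.26 for Hes5. The log2 difference was 0.29 for Hey1, 0.21 for Hey2 and -0.27 for Nrarp, each with overlapping groups. Heyl was too low to be tested, with 0.158, 0.0681, 0.502 and 0.122 FPKM among controls and 0.0503, 1.90 and 0.297 FPKM among Med23 CKO libraries, so that KO_214 alone lay above the controls.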

How the data were processed

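The members and gene lists were chosen with earlier results of these data known. Illumina HiSeq reads were obtained from RNA of 7 neurosphere cultures. The authors removed adapters, aligned reads to mm10 with TopHat and deposited FPKM per gene and library, calculated with Cuffdiff. Their fold changes, test statistics, p-values and q-values, held in the same table, were not used, and neither were the group means. Samples were assigned by their titles, and 0 columns of other samples were found.

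From FPKM, log2(FPKM + 1) was computed with a pseudocount of 1 for 14151 genes with a mean of at least 0.5, and Med23 CKO (n = 3) was compared with control (n = 4) by limma 3.58.1 with trend (R 4.3.3), two-sided, with Benjamini-Hochberg adjustment. The code was tested on simulated data. Single genes were also tested by exact permutation over 35 splits. Depth is unknown: ratios of values under 0.3 FPKM between libraries fell on no steps (fullest bin of 0.05 log2 at most 4.56% over 21 pairs), so no counting interval is given and the number of libraries limits precision. No labels give a batch. No libraries were identical (r of log2(FPKM + 1) from 0.907 to 0.990). The genes named were Med23, the members, genes of the pathway lists with an unadjusted p under 0.05, Hes1, Hes5, Rbpj, Mib1 and Lfng, and for each member the 3 genes with the highest Pearson r. A further gene of that rule is not reported here. Sox2, Nes, Dlx2, Hey1, Hey2, Heyl, Nrarp, Flt1 as a marker, Snora64, Gm38671 and A930024N18Rik were named after their values or positions were seen. Coordinates are those of GENCODE M21 for genes and of RefSeq for promoters, both on GRCm38, which is mm10. Genes that share exon bases with a member were looked for on both strands after the values were seen. The alternatives were a pseudocount of 0.1, no filter, a mean of at least 1, quantile normalization, median centring, limma without trend, array weights and each library left out in turn. Ratios of members to markers, and counts over the lists with a library left out, were added after the values were seen.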

Additional observations from a re-analysis of the deposited data

How the results depend on the processing

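Over the 14 alternatives, Jag1 kept a higher mean in Med23 CKO in 14, from 0.77 to 1.07 on the log2(FPKM + 1) scale, with an unadjusted p under 0.05 in 14, and Dll1 kept a lower mean in 14, from -0.93 to -0.63, with an unadjusted p under 0.05 in 11. Dll4 and Notch4 also kept their direction in 14. None of the 9 members reached an adjusted p under 0.05 in any alternative. The direction was not kept for the others with each library left out in turn, where Jag2 ran from -0.44 to 0.14, Dll3 from -1.73 to 0.35, Notch1 from -0.48 to 0.46, Notch2 from -0.38 to 0.33 and Notch3 from -0.43 to 0.38. With array weights, whose estimation stopped before it converged, the differences were -0.34 for Notch1, -0.13 for Notch2 and -0.13 for Notch3, and with a pseudocount of 0.1 that of Notch2 was -0.0053. Over all genes, the count higher at an unadjusted p under 0.05 was 140 with no filter and 193 with array weights, and the count lower was 887 with array weights. With each library left out in turn these counts ran from 44 to 362 and from 71 to 410, and the count higher at an adjusted p under 0.05 from 0 to 1 (Snora64 without KO_214, Gm38671 without KO_218). The highest counts were without KO_117. The causes were not tested. Since read counts were not used here, the precision of the low genes Dll4, Notch4 and Jag2 is not known beyond the spread of 3 and 4 libraries.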
